A study of Mus musculus with 2 samples.

Results

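The 211 genes described here had at most 20 UMIs summed over all cells given vehicle and at least 200 UMIs summed over all cells given panobinostat. A UMI is 1 distinct RNA molecule counted by its tag. They were picked by these measured values, so their counts and ratios are a description and carry no test. Of 19394 rows in the matrix, 227 met both limits. Of these, 12 rows with provisional symbols (Gm with digits, or ending in Rik) and 4 genes named in advance for exclusion (Meg3, Dlk1, Stmn3, Elavl3 and Chga were the 5 listed) were left out. The 211 members are 1.3% of the 16222 named genes, 1.87% of the 11280 named genes with at least 200 UMIs under panobinostat, and 5.92% of the 3563 named genes with at most 20 UMIs under vehicle.

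The panobinostat library came from cells exposed to 0.2 µM of the drug for 48 h, and the vehicle library from cells exposed to DMSO for the same time. Both were Pax2+ renal progenitors from kidney cortex of 9-week-old C57Bl/6 mice carrying Pax2.rtTA and TetO.Cre, by which the Pax2 promoter drives Cre, and the R26.mT/mG reporter, by which recombined cells carry GFP. The labels give 2 mice, 5 days of outgrowth from cultured glomeruli, a sort on GFP and 16 h of starvation before exposure. Each treatment has 1 library. An effect of the drug and a difference between cultures or library preparations cannot be told apart, and intervals cover counting error only.

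Histone deacetylases remove acetyl groups from histone tails and other proteins, and are part of complexes that keep genes of other tissues shut. Panobinostat is a hydroxamate that blocks most zinc-dependent members of this enzyme family and raises histone acetylation. In neurons and other specialised cells, genes such as those of synapses are held open, while the repressor REST recruits deacetylases to many of the same genes elsewhere.

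In the panobinostat library 104188927 UMIs were counted over 2281 cells (median 42394 per cell). In the vehicle library 90754967 UMIs were counted over 2854 cells (median 27923.5). No cell barcode occurred in both. Markers of parietal epithelial cells, which line the glomerular capsule and include Pax2-lineage progenitors, were present in both libraries, as 9 of 10 passed 10 CPM (counts scaled to a library total of 1000000 UMIs) under panobinostat and 10 of 10 under vehicle. Markers of other cell types were also read, since sorted cells can carry others along. Of 7 measured genes of neurons and Schwann cells, 0 passed 10 CPM in either library, and their sum stood at 11.2 CPM under panobinostat and 1.42 CPM under vehicle. The member Slc17a7 made up 8.65 CPM of the first sum, while the neuronal nuclear gene Rbfox3 stood at 0.24 CPM under panobinostat and 0.022 under vehicle. Of 5 leukocyte genes, the lysosomal Cd68 stood at 65.5 CPM under panobinostat and 4.11 CPM under vehicle, and the pan-leukocyte Ptprc at 1.98 CPM under panobinostat and 0.606 under vehicle. Csf1r stood at 0.537 CPM under panobinostat and 0.452 under vehicle, Cd79a at 0.134 and 0.132, and Lyz2 at 0.144 and 0.011. Of 7 tubule genes, Lrp2, the endocytic receptor of proximal tubule, stood at 11.7 CPM under panobinostat and 0.65 CPM under vehicle, and Umod at 0.0288 CPM under panobinostat and 0 under vehicle.

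Together the members held 104749 UMIs under panobinostat, 0.101% of that library, against 1736 UMIs under vehicle, 0.00191%. Under vehicle, 14 members had 0 UMIs, 70 had 1 to 5 and 127 had 6 to 20. Their median was 360 UMIs under panobinostat and 8 under vehicle. Most stayed low with the drug: 83 members had 200 to 299 UMIs and 18 passed 10 CPM, with at least 1048 UMIs each. The ratio of CPM, panobinostat over vehicle, ran from 9.87-fold to 1002-fold, and its median was 5.62 on the log2 scale, a range that the 2 limits largely fix. The 3′ libraries count molecules near the transcript end, so UMIs are not scaled by gene length.

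**Figure D1:**
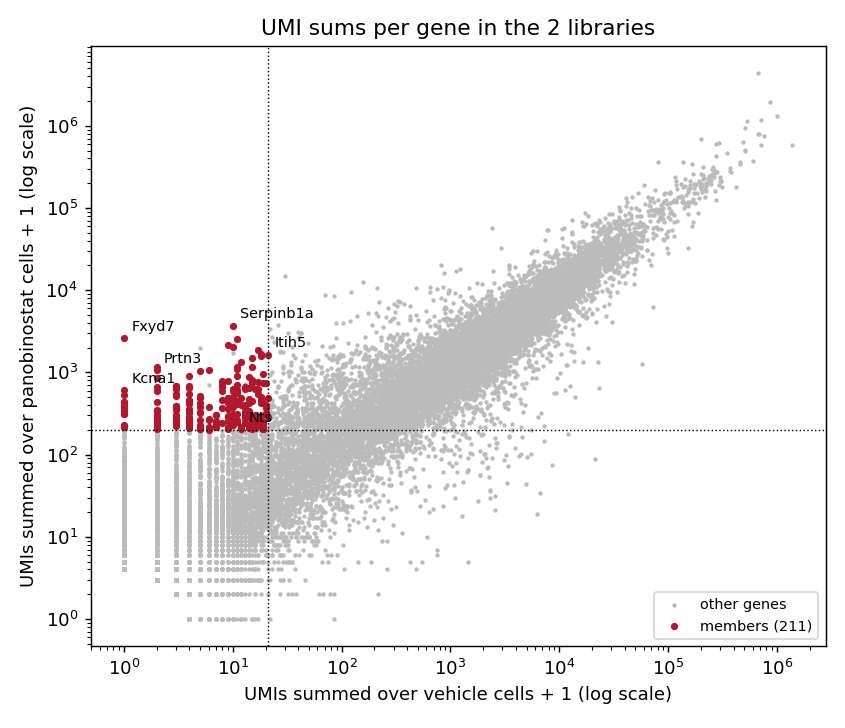
Each point is 1 gene, placed by its UMIs plus 1 summed over vehicle cells (x, log scale) and over panobinostat cells (y, log scale), with the limits of 20 and 200 UMIs as dotted lines. The 211 members (red) fill the upper left corner, with Fxyd7 at 0 vehicle UMIs and Serpinb1a highest at 3703 panobinostat UMIs. Grey points inside the corner are the rows left out by name.

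The limits cut through a continuous field of genes. Just inside, Igsf1 had 200 UMIs under panobinostat and 5 under vehicle, and Nts and Rnf182 had 201 each under panobinostat. Just outside, Cabcoco1, Crtac1 and Krt23 had 199 each under panobinostat, and 112 rows with at most 20 vehicle UMIs had 150 to 199. At the other limit, Itih5, Cnih2 and Pou2f2 had 20 vehicle UMIs and were kept, while Iglon5 (3349 panobinostat UMIs), Crym and Wnk2 had 21 and were not. With the libraries exchanged, 19 genes, 0.117% of named genes, had at most 20 UMIs under panobinostat and at least 200 under vehicle. Ccna2, a cyclin of S phase and mitosis, led them with 18 UMIs under panobinostat and 6263 under vehicle, followed by the spindle genes Aspm (20 with panobinostat, 2578 with vehicle) and Ska1 (4 with panobinostat, 1459 with vehicle).

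Serpinb1a had the most UMIs of all members. It encodes an inhibitor of neutrophil serine proteases and lies on chromosome 13 from 32842092 to 32851185 (GRCm38, minus strand). It had 3703 UMIs under panobinostat, or 35.5 CPM (exact Poisson 95% interval 34.4 to 36.7), and 9 UMIs under vehicle, or 0.0992 CPM. It was found in 51.7% of panobinostat cells and 0.28% of vehicle cells, with 3.14 UMIs per positive panobinostat cell. Serpinb1a belongs to a family of near-identical copies, so reads may have been split among them.

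Fxyd7 had the most UMIs among members unseen under vehicle. Its product is a small membrane protein of brain that tunes the sodium pump, and the gene lies on chromosome 7 from 31042513 to 31051467 (GRCm38, minus strand). It had 2598 UMIs in panobinostat cells and 0 in vehicle cells. Against a floor of 3 UMIs in the vehicle library it was at least 754-fold higher, and 57.9% of panobinostat cells held a UMI.

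Of the other members with most UMIs, 11 had 1150 to 2150 UMIs under panobinostat and 1 to 20 under vehicle. Most of them are genes of neurons. The stathmin Stmn4, which binds tubulin, had 2150 UMIs under panobinostat and 8 under vehicle. Neurofascin, Nfasc, an adhesion protein of the axon initial segment, had 2034 under panobinostat and 9 under vehicle. The brain antigen Pnma2 had 1846 under panobinostat and 16 under vehicle, and the brain membrane protein Sez6l2 had 1675 under panobinostat and 17 under vehicle. Synaptotagmin 1, Syt1, the calcium sensor of vesicle release, had 1593 UMIs under panobinostat and 17 under vehicle. Cend1, which promotes cell-cycle exit of neuronal precursors, had 1169 under panobinostat and 14 under vehicle, and the kinase scaffold Mapk8ip2 had 1168 under panobinostat and 10 under vehicle. The others belong to other tissues. Itih5, of the hyaluronan matrix, had 1647 UMIs under panobinostat and 20 under vehicle, and Barx1, a homeobox gene of stomach mesenchyme and jaw, had 1474 under panobinostat and 14 under vehicle. Cidea, a lipid droplet protein of brown fat, had 1338 under panobinostat and 11 under vehicle. Nccrp1, known from stratified epithelia, had 1150 UMIs under panobinostat and 1 under vehicle, the largest ratio of all members (log2 9.97, exact 95% interval 7.49 to 15.3).

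To compare shares of cells between libraries of unequal depth, each cell was thinned at random to 18663 UMIs, which kept 2221 panobinostat and 2401 vehicle cells. The median member was then found in 5.85% of panobinostat cells and 0.167% of vehicle cells. Unthinned, the median share under panobinostat was 13.1%. After thinning the shares under panobinostat ran from 1.98% to 34.3%, while no member passed 0.541% under vehicle. Only 6 members reached 25% of thinned panobinostat cells, and 170 stayed under 10%. Serpinb1a (34.3%, exact binomial interval 32.3 to 36.3), Fxyd7 (33.9%), Nfasc (27.9%), Pnma2 (27.7%) and Sez6l2 (26.0%) were the broadest. The intervals of Serpinb1a and Fxyd7 (31.9 to 35.9) overlap, and so do those of Nfasc, Pnma2 and Sez6l2. At the low end stood the neuropeptide precursor Nts (1.98%), Lbhd2 (2.70%), the ubiquitin ligase Rnf182 (2.93%), the copine Cpne4 (2.97%) and the phosphatase regulator Ppp1r16b (3.11%). A member with 0 UMIs in 2401 thinned vehicle cells may still have been in up to 0.125% of them. No cell type that should lack all these genes was in either library, so the part of free RNA in these shares was not tested.

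A positive cell mostly held a single molecule. The median member had 1.18 UMIs per positive panobinostat cell, 120 members had under 1.2, and 25 had at least 1.5. Beside Serpinb1a, Stmn4 (2.27), Nts (2.23) and the water channel Aqp3 (2.19) were among the highest. These genes reached that figure in different ways. Stmn4 was in 25.4% of thinned panobinostat cells. Aqp3 was in 8.01%, and 40.9% of its UMIs lay in the 23 cells that held most. Nts was in 1.98%, and 75% of its UMIs lay in the 23 richest cells, 1 of which held 63. Across thinned panobinostat cells the variance over the mean had a median of 1.07 over members, where a value of 1 is what independent counting gives, and 11 members (5.21%) reached 1.5. Of 7055 other genes with UMI sums in the same range, 2.49% reached 1.5, and their median was 1.05. Nts (8.01), Aqp3 (4.10), Serpinb1a (2.80), Tnfaip6 (2.06) and Slpi (2.02) were among those with the widest spread.

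**Figure D2:**
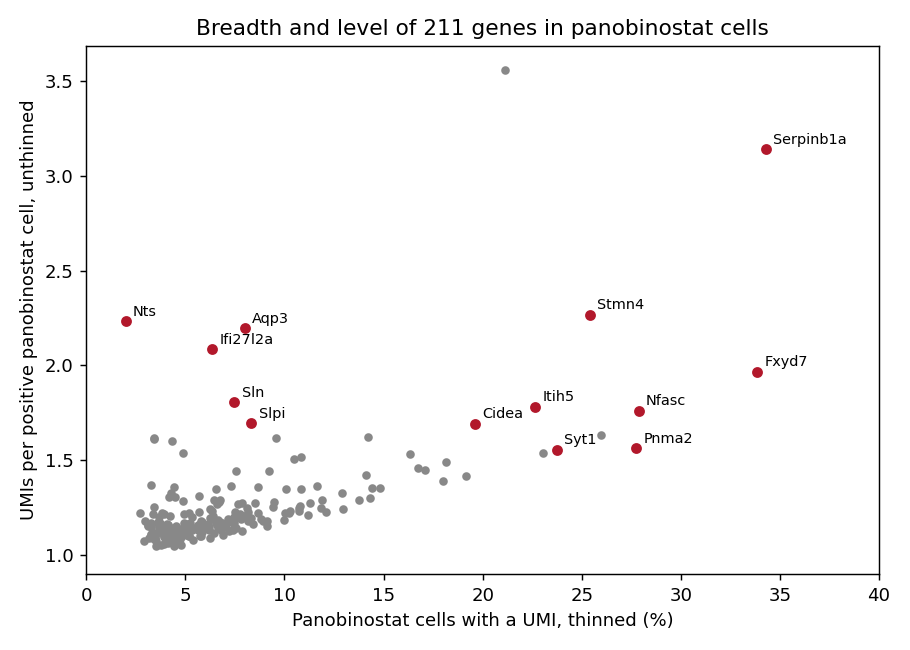
Each point is 1 member, placed by the share of thinned panobinostat cells with a UMI (x, percent) and by UMIs per positive panobinostat cell without thinning (y), with labelled genes in red. Most members lie at the lower left, under 10% of cells and under 1.5 UMIs per positive cell, while Serpinb1a stands apart with 3.14 UMIs per positive cell and Nts combines 1.98% of cells with 2.23 UMIs.

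Although each member was seen in few cells, nearly every panobinostat cell held some of them. A thinned panobinostat cell held UMIs of 16 members in the median (5th to 95th percentile 8 to 26, range 0 to 44), and a thinned vehicle cell held 0 (95th percentile 2, highest 7). At least 5 members were seen in 2206 of 2221 panobinostat cells, or 99.3%, and in 6 of 2401 vehicle cells. In the panobinostat library 1 thinned cell held no member, and 108 held 7 or fewer, the highest number seen in a vehicle cell. Split by total UMIs before thinning, 4 groups of panobinostat cells of like size had medians of 16, 15, 15 and 16 members. The 2 libraries thus overlap in a small tail, a separation that the rule for members largely fixes. The count of members per panobinostat cell did not follow cell depth after thinning.

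**Figure D3:**
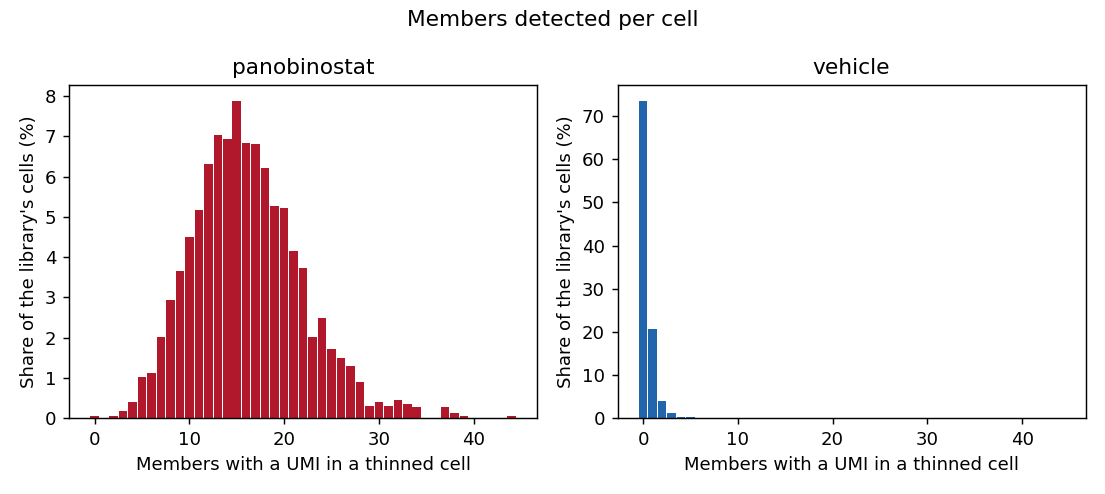
Bars give the share of thinned cells (y, percent of the library) by the number of members with a UMI (x), for panobinostat (left) and vehicle (right), with separate y axes. Panobinostat cells centre on 16 members and spread up to 44, whereas 73.6% of vehicle cells hold none and no vehicle cell holds more than 7.

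The 1736 UMIs under vehicle were spread thinly. Unthinned, they lay in 1049 of 2854 vehicle cells, or 36.8%. The vehicle cell with most held 21 member UMIs, of which 14 were of Des, the muscle intermediate filament desmin. The 10 vehicle cells with most held 113 together, 6.51% of the total. Des had 222 UMIs under panobinostat and 15 under vehicle in all, and 14 of the 15 vehicle UMIs lay in 1 cell. The vehicle counts of Cbln2 (4 UMIs) and Stac2 (3 UMIs) each lay in 1 cell.

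By textbook tissue of expression, assigned by hand after the members were known, 92 of the 211 (43.6%) are genes of the nervous system, and these held 46.0% of member UMIs under panobinostat. Genes outside the members were not classed in this way, so these shares have no background beside them and show no enrichment. Of the others, 14 are genes of embryonic patterning, 10 of liver, gut or exocrine glands, 9 of blood or immune cells, 9 of gonad or placenta, 7 of skin and barrier epithelium, 7 of muscle or fat, 7 of skeleton and matrix, 6 of kidney tubule, 5 of sense organs and 3 of motile cilia. No class was assigned to 42. The median share of thinned panobinostat cells was 6.24% for the nervous system genes and ran from 4.28% for cilia to 8.10% for gonad and placenta. Within the nervous system genes alone it ran from 1.98% to 33.9%, so single genes of a class differed more than the medians of classes. Genes named below beyond the 4 of each tissue list with most UMIs were picked after their values were seen. The counts of members per list below stand beside 1.3% for all named genes and 5.92% for those near silent under vehicle.

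Several members act in transmitter release at synapses. Glutamate is loaded into vesicles by the transporter Slc17a7, which had 901 UMIs under panobinostat and 10 under vehicle. The vesicle membrane protein synaptophysin, Syp, had 786 under panobinostat and 7 under vehicle, and synapsin 2, Syn2, which tethers vesicles, had 627 under panobinostat and 15 under vehicle. Snap25, a fusion protein of the plasma membrane, had 657 UMIs under panobinostat and 1 under vehicle (log2 ratio 9.16, interval 6.68 to 14.5). These genes were each found in 9.46% to 14.3% of thinned panobinostat cells. Beta-synuclein, Sncb, a protein of nerve endings, had 676 UMIs under panobinostat and 2 under vehicle, and amphiphysin, Amph, which acts in vesicle retrieval, had 635 under panobinostat and 9 under vehicle. On the membrane side, the adhesion receptor Nrxn2 had 596 UMIs under panobinostat and 1 under vehicle. Postsynaptic members were lower, with 408 under panobinostat and 9 under vehicle for the calmodulin-binding Nrgn and 270 under panobinostat and 5 under vehicle for the scaffold Shank1. Of the 90 measured genes in a synapse list, 11 were members (12.2%), that is 11 of the 58 that had at most 20 vehicle UMIs (19%).

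Ion channels of neurons made up a second set. The potassium channel Kcna1, which damps firing of axons, had 610 UMIs under panobinostat and 0 under vehicle, at least 177-fold higher against the floor of 3 UMIs. Cacng7, an auxiliary subunit of glutamate receptors, had 537 UMIs under panobinostat and 0 under vehicle, at least 156-fold higher. Its relative Cacng4 had 349 UMIs under panobinostat and 1 under vehicle, and the potassium channel Kcnh7 had 382 under panobinostat and 9 under vehicle. Each of these 4 was in 5.54% to 10.7% of thinned panobinostat cells and had 1.14 to 1.25 UMIs per positive cell. Lower in count were the sodium channel of pain fibres Scn9a (281 with panobinostat, 1 with vehicle) and the GABA receptor subunit Gabra4 (327 with panobinostat, 3 with vehicle). In all, members made up 9 of 97 measured genes in the neuronal channel and receptor list (9.28%), or 9 of its 74 genes near silent under vehicle.

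Genes of the neuronal cytoskeleton and its regulators gave 5 of 89 listed genes (5.62%). Beside Stmn4 they were the neurofilament light chain Nefl (787 UMIs under panobinostat and 8 under vehicle), the kinase activator Cdk5r2 (424 with panobinostat, 13 with vehicle) and the transcription factors Pax6 (404 with panobinostat, 11 with vehicle) and Lhx2 (365 with panobinostat, 7 with vehicle). Nefl was uneven over cells, with 23.7% of its UMIs in the 23 richest. Peptide hormone and granule genes gave 3 of 52 (5.77%). Resp18, a protein of endocrine granules, had 430 UMIs under panobinostat and 0 under vehicle. Secretin, Sct, had 428 under panobinostat and 17 under vehicle, and Nts, the precursor of neurotensin, 201 under panobinostat and 11 under vehicle. Among glial genes 1 of 26 was a member, Fa2h, which makes hydroxylated lipids of myelin (245 with panobinostat, 10 with vehicle).

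The sodium pump is built from an alpha, a beta and often an FXYD subunit, and less widespread beta and FXYD subunits were among the members. The beta 2 subunit Atp1b2 had 240 UMIs under panobinostat and 1 under vehicle. Fxyd1, or phospholemman, of heart and skeletal muscle had 441 under panobinostat and 0 under vehicle, beside Fxyd7 with 2598 under panobinostat and 0 under vehicle. The beta 1 subunit Atp1b1, found in most tissues, was present in both libraries, at 572.7 CPM under panobinostat and 397.4 CPM under vehicle (log2 ratio 0.53). Among other FXYD genes, Fxyd2 (log2 ratio 2.94) and Fxyd6 (4.15) were higher under panobinostat and Fxyd5 (-0.90) was lower. Fxyd1 and Fxyd7 are neighbours on the minus strand of chromosome 7, with Fxyd1 (31051678 to 31057199) ending 211 bases before Fxyd7 begins. This subunit list was drawn up after the members were seen.

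Regulators of embryonic patterning came from many regions of the body. Of 73 measured homeobox and related genes in a fixed list, 7 were members (9.59%), or 14.6% of the 48 near silent under vehicle. Barx1 was by far the broadest, in 23.1% of thinned panobinostat cells, against 0.125% of thinned vehicle cells. Hoxb13 of the tail and prostate had 715 UMIs under panobinostat and 7 under vehicle. The eye and forebrain genes Six3 (591 with panobinostat, 9 with vehicle) and Vax2 (542 with panobinostat, 2 with vehicle), and Nkx2-3 of gut and spleen (393 with panobinostat, 2 with vehicle), followed. Foxd1, which marks the stroma of the developing kidney, had 282 under panobinostat and 14 under vehicle, and Hmx1 of eye and ear had 215 under panobinostat and 0 under vehicle. Among signals, Wnt6 had 549 UMIs under panobinostat and 3 under vehicle, the Wnt agonist Rspo1 485 under panobinostat and 8 under vehicle, and the Wnt antagonist receptor Kremen2 383 under panobinostat and 5 under vehicle.

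Few kidney genes were among the members. Aqp3, the basolateral water channel of the collecting duct, had 733 UMIs under panobinostat and 19 under vehicle. The aspartic protease Napsa of lung and proximal tubule had 622 under panobinostat and 12 under vehicle, and Cldn10, a tight junction protein of the thick ascending limb, 494 under panobinostat and 17 under vehicle. The cystine transporter subunit Slc7a9 of proximal tubule had 473 under panobinostat and 13 under vehicle, and Cdhr5, of the brush border, 455 under panobinostat and 7 under vehicle. These 5 genes span proximal and distal segments, and each stayed at or under 7.04 CPM under panobinostat. The 7 measured tubule markers summed to 14.3 CPM under panobinostat and 0.848 CPM under vehicle. Beside Lrp2, Calb1 stood at 1.08 CPM under panobinostat and 0.033 CPM under vehicle, and Slc12a1 at 0.96 CPM under panobinostat and 0.088 CPM under vehicle. Slc12a3 and Atp6v1g3 stood at 0.25 CPM each under panobinostat, against 0.022 and 0.044 CPM under vehicle. Umod and Aqp2 stood at 0.029 CPM each under panobinostat, against 0 and 0.011 CPM under vehicle. These markers moved with this group, and the part of tubule cells was not tested.

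In muscle, 3 of 51 listed genes were members (5.88%). Sarcolipin, Sln, which inhibits the calcium pump, had 641 UMIs under panobinostat and 3 under vehicle. The calcium release channel Ryr1 had 487 under panobinostat and 11 under vehicle, and Des 222 under panobinostat and 15 under vehicle. Glucose transporter 4, Slc2a4, of muscle and fat had 404 under panobinostat and 12 under vehicle. Sln had 1.81 UMIs per positive cell, more than Ryr1 with 1.18, although both were in 7.47% to 8.15% of thinned panobinostat cells.

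Among genes of blood cells, proteinase 3, Prtn3, stood beside Serpinb1a. This granule protease of neutrophils had 1066 UMIs under panobinostat and 1 under vehicle (log2 ratio 9.86, interval 7.38 to 15.2). The protease inhibitor Slpi of mucosal surfaces and leukocytes had 672 under panobinostat and 7 under vehicle. Ifi27l2a, an interferon-induced gene, had 511 under panobinostat and 4 under vehicle, and H2-Aa, an MHC class II chain, 241 under panobinostat and 1 under vehicle. Prtn3 and Ly6d were 2 of 50 listed blood genes (4%). That is 5.88% of the 34 near silent under vehicle, about the 5.92% of all such named genes. The leukocyte marker Cd68, at 65.5 CPM under panobinostat and 4.11 CPM under vehicle, moved with this group. Ptprc, at 1.98 CPM under panobinostat and 0.606 CPM under vehicle, was also higher, and so was Lyz2 at lower counts. Csf1r and Cd79a were near level between the libraries. The part of such cells was not tested.

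The members of gonad and placenta were not genes of the meiosis list. Dkkl1, of the sperm acrosome, had 669 UMIs under panobinostat and 12 under vehicle, the ovarian steroid enzyme Akr1c18 had 593 under panobinostat and 7 under vehicle, the testis chaperone Clgn 463 under panobinostat and 8 under vehicle, and Esx1 of placenta 311 under panobinostat and 0 under vehicle. Of 72 measured genes of testis, oocyte and meiosis in a fixed list, 0 were members, although 56 of them had at most 20 vehicle UMIs. Likewise 0 of 31 liver and plasma genes and 0 of 16 steroid gland genes met the rule. Since only 1.3% of all named genes and 5.92% of those near silent under vehicle were members, 0 in lists of this size shows little. For placenta and imprinted growth it was 2 of 21, Sct and Tfap2c.

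The other classes had small numbers of listed genes. For skin, 1 of 73 was a member (1.37%, about the 1.3% of all named genes): corneodesmosin, Cdsn (294 UMIs under panobinostat and 13 under vehicle). For gut, lung and exocrine tissue it was 2 of 26, the gastric proton pump Atp4a (308 with panobinostat, 10 with vehicle) and the pancreatic lipase-related Pnliprp2 (288 with panobinostat, 3 with vehicle). For motile cilia it was 2 of 77, the dynein Dnah5 (320 with panobinostat, 19 with vehicle) and Cfap206 (238 with panobinostat, 3 with vehicle). For eye, ear and chemosensory cells it was 1 of 41, the G protein subunit Gng8 (439 with panobinostat, 1 with vehicle). Cartilage and matrix genes fell outside these lists: the collagens Col5a3 (1078 with panobinostat, 5 with vehicle) and Col9a2 (1048 with panobinostat, 4 with vehicle) passed 10 CPM, while aggrecan, Acan, had 219 under panobinostat and 18 under vehicle. In all, 48 members were in at least 1 list and 163 in none. Median log2 ratios with 0.1 CPM added were also taken over all measured genes of a list, members included. They were 1.65 for synapse, 1.72 for neuronal channels, 2.15 for neuronal cytoskeleton and regulators and 1.55 for developmental homeobox. The other tissue lists ran from 0.21 for placenta and imprinted growth to 1.46 for peptide hormone and granule genes, with germline at 0.69. All named genes stood at 0.13, but most of them were not near silent under vehicle. No median over near-silent genes was taken, and the members were picked as higher, so these medians set no list apart.

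Cells of the panobinostat library were split into 6 clusters from genes other than the members. The range over clusters in the share of thinned cells with a UMI had a median of 8.24 percentage points, and 16 members ranged over 20 points or more. Dkkl1 ranged widest, from 6.51% in cluster 1 to 67.8% in cluster 6. The polo-like kinase Plk5, found in brain, ran from 2.13% in cluster 5 to 52.5% in cluster 6. Serpinb1a ran from 11.7% in cluster 4 to 54.2% in cluster 2. Prtn3 ran from 11.7% in cluster 5 to 39.0% in cluster 6. Broad neuronal members were not alike in this: Stmn4 ran from 16.7% in cluster 2 to 41.5% in cluster 5 and Nfasc from 10.5% in cluster 3 to 34.8% in cluster 2, while Sez6l2 ran from 18.6% in cluster 6 to 27.0% in cluster 2. Aqp3 was in 22.2% of cluster 2 and 23.7% of cluster 6 but 0.875% of cluster 1.

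Cluster 6 held 61 cells, 2.67% of the library, and is led by Pltp, Evpl and Dcxr. Its thinned cells carried 25 members in the median, against 15 to 18 in the other 5 clusters. Cluster 1, with 1050 cells, is led by Cldn16, Il5ra and Sytl2, and cluster 2, with 647 cells, by Kitl, Gata3 and Pmp22. No cluster was named as a cell type. With 1 library, differences between clusters were not tested.

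**Figure D4:**
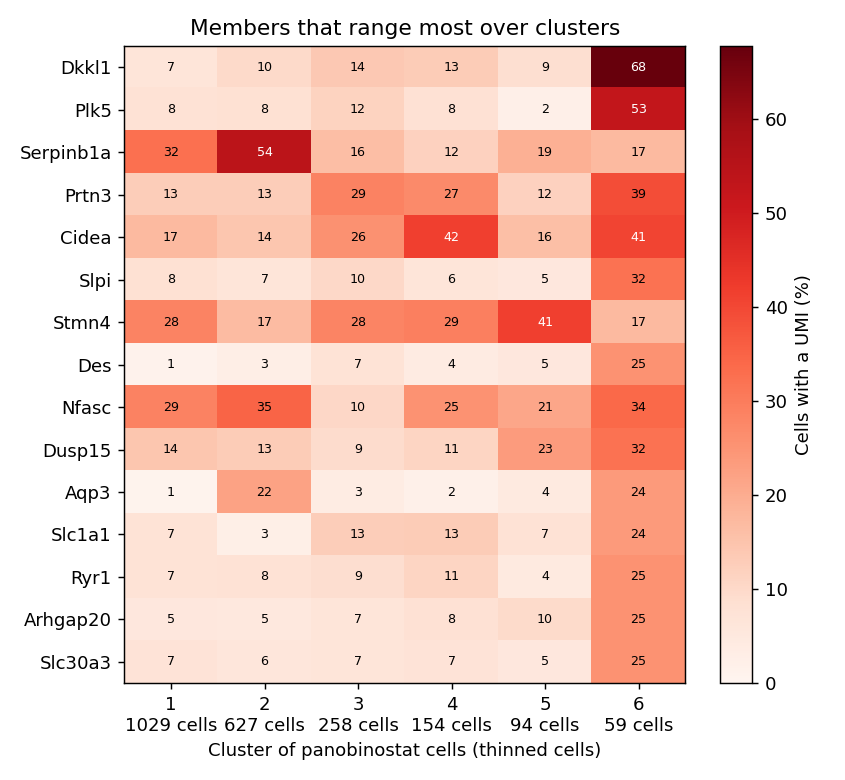
Colour and number give the percent of thinned panobinostat cells with a UMI for 15 of the 16 members (rows) that range by 20 points or more over 6 clusters (columns, with thinned cells). Dkkl1 and Plk5 are concentrated in cluster 6, and Serpinb1a is highest in cluster 2.

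Within panobinostat cells the thinned UMI counts of members were at most weakly correlated. Over 2221 thinned cells, the 22155 pairs of members had a median Pearson correlation of 0.005, and 0 pairs passed 0.2. The highest was Dkkl1 with Plk5 at 0.186. These counts are sparse, which by itself holds correlations near 0, and no other genes of like count were compared. The values come from 1 library and are a description only. They do not show that members vary independently of each other.

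The sequence at the gene start was not used to pick the members. A start was called CpG-rich where the first 300 bases of the GENCODE M21 transcript had at least 50% G and C and at least 0.6 times the CpG dinucleotides that base composition gives. CpG-rich starts are common in broadly expressed and developmental genes. Of the 209 members with a start, 117 (56.0%) were CpG-rich. Among genes with at most 20 UMIs in both libraries it was 401 of 1943 (20.6%), and among genes with over 20 vehicle and at least 200 panobinostat UMIs 7511 of 10931 (68.7%). All named genes stood at 58.1%. The members' share was nearer to that of the active genes than to that of the genes that stayed silent. It was also slightly under the share of all named genes, so it does not set the members apart from named genes in general. The silent and active groups were defined by UMI counts of the same libraries as the members.

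This share differed between tissue classes, most of them small. It was 64 of 91 (70.3%) for the nervous system members and 11 of 14 (78.6%) for embryonic patterning. Near the share of all members stood muscle and fat (4 of 7), gonad and placenta (5 of 9) and members without a class (22 of 41). Lower were sense organs (2 of 5), cilia (1 of 3), skeleton and matrix (2 of 7) and blood and immune (2 of 9). Liver, gut and exocrine (2 of 10), kidney tubule (1 of 6) and skin (1 of 7) were lowest. Within the 3 neuronal lists, 21 of 25 members (84.0%) were CpG-rich, against 30 of 59 genes (50.8%) that were near silent in both libraries. Over all tissue lists it was 32 of 48 members (66.7%) and 87 of 301 silent genes (28.9%). The difference from silent genes was thus also seen among genes of the same tissue lists. No test was run on these counts.

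**Figure D5:**
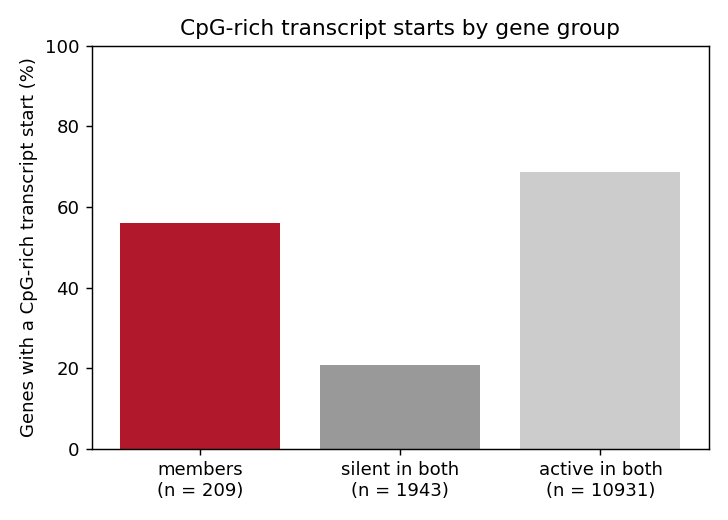
Bars give the percent of genes with a CpG-rich transcript start for the members, for genes with at most 20 UMIs in both libraries, and for genes with over 20 vehicle and at least 200 panobinostat UMIs, with the number of genes under each. The members stand at 56.0%, the silent genes at 20.6% and the active genes at 68.7%.

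Both kinds of start are shown by the 150 bases before the RefSeq start of 4 members (GRCm38.p6), read 5′ to 3′ on the gene's strand with CpG dinucleotides in capitals. The first pair has CpG-rich and the second CpG-poor promoter windows, each pair being the members with most panobinostat UMIs of its kind. Barx1 (chr13:48662886-48663035, plus strand) holds 30 CpG and Mapk8ip2 (chr15:89453761-89453910, plus strand) holds 11. Nfasc (chr1:132707327-132707476, minus strand) holds 2 and Itih5 (chr2:10153393-10153542, plus strand) holds 6. The Nfasc start lies inside the GENCODE M21 span of its gene, and the others lie at the 5′ end of theirs.
Barx1: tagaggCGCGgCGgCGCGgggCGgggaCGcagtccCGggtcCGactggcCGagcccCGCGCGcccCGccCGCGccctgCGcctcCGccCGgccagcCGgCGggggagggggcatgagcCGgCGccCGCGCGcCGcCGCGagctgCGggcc
Mapk8ip2: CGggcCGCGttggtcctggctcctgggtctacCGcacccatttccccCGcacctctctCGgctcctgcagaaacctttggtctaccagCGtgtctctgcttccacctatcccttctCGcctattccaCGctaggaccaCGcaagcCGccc
Nfasc: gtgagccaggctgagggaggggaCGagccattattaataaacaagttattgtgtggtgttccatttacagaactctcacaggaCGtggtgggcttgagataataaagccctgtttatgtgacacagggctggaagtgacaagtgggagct
Itih5: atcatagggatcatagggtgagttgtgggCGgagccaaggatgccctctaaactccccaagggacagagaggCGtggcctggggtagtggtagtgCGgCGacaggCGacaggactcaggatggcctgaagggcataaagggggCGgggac
RefSeq promoter windows were matched for 158 of the 211 members (74.9%). That is under the 80% set for such a check, so promoter windows were not compared between groups and motif counts in them are not given.

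Members lay on every autosome and on X. Chromosome 7 held 27 (2.16% of its named genes) and chromosome 2 held 26 (2.03%), beside 1.3% for all named genes. Chromosome 16 had the lowest share, with 3 members (0.617%). Within 100 kb of another member lay 26 of them. How many of a like number of other named genes lie so close was not counted, so this shows no clustering. Close pairs were Fxyd1 with Fxyd7, Cdhr5 with Sct (1544 bases apart), Dact3 with Gng8 (4324), Gprin1 with Sncb (8986) and Slc17a7 with Dkkl1 (31377). Prtn3 and Plppr3 overlap on opposite strands. The paired genes include unlike tissues, as with Slc17a7 of neurons and Dkkl1 of sperm.

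The targets of the drug and the repressor of neuronal genes were themselves measured. None of 11 Hdac genes and none of 14 genes of REST and its corepressors was a member. Only 1 of the 11 and 0 of the 14 had at most 20 vehicle UMIs, so the rule left out the rest beforehand. Hdac1 stood at 164.3 CPM under panobinostat and 168.9 CPM under vehicle, and Rest at 64.5 CPM under panobinostat and 82.5 under vehicle (log2 ratio -0.36). Hdac11 (log2 ratio 2.02) and Hdac5 (1.84) were higher under panobinostat, and Hdac7 (-1.18) was lower.

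Some members carry uncertain counts. Cadm3, Gprasp2, Nccrp1, Plppr3, Syt1, Atp8a2 and Fbxl16 overlap another measured gene on the same strand. Beside Serpinb1a, H2-Q10, H2-Aa, Akr1c18, Ifi27l2a and Tceal6 belong to families with near-identical copies. Of the 211 members 210 are annotated as protein coding, and the other, Pcsk2os1 (350 UMIs under panobinostat and 2 under vehicle), lies antisense to Pcsk2.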

How the data were processed

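The labels' protocols give 10x Chromium 3′ libraries read on a NextSeq500. Cell Ranger 3.0.1 and build mm10 are named, without a role, per the submitters' processing notes. The deposited matrix holds raw counts of UMIs, not normalized by the authors. The poorest cell had 1798 genes, the highest mitochondrial share was 9.98% and no gene was in fewer than 3 cells, so filters preceded deposit, and their rules are not given in the sources used here. No further cells were removed and no doublet caller was run. Barcodes marked as control were read as vehicle.

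The members and gene lists were chosen with earlier results of these data known. UMIs were summed per library and scaled to 1000000 (CPM). Single values have exact Poisson, binomial (Clopper-Pearson) or conditional binomial intervals at 95%, which cover counting error only. A vehicle count of 0 was set at 3 counts, equal to 0.0331 CPM in the vehicle library (0.0288 CPM in the panobinostat library). Cells are not replicates, so no p-value was computed.

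For shares, UMIs of each cell were drawn without replacement down to 18663 (10th percentile of cell totals), which left out 60 panobinostat and 453 vehicle cells. Panobinostat cells were clustered with scanpy 1.11.5 and leidenalg 0.10.2 (2000 variable genes without the members, 30 components, 15 neighbours, resolution 0.5). Named members are the 14 with most panobinostat UMIs, the 5 with the largest and 5 with the smallest thinned share, the 5 with most UMIs per positive cell, the 5 with the largest range over clusters, those at 0 vehicle UMIs among the 20 with most panobinostat UMIs, up to 4 per tissue list and the 3 on either side of each limit. Others were named after their values were seen, and some genes that this rule names are not reported here. Gene coordinates and transcripts are from GENCODE M21 (GRCm38), and promoter windows from RefSeq (GRCm38.p6). Alternatives included TMM factors from edgeR 4.0.16 and size factors from DESeq2 1.42.0. The selection was tested on simulated counts. Software was R 4.3.3 and Python 3.11.15 with scipy 1.17.1 and numpy 2.4.6.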

Additional observations from a re-analysis of the deposited data

How the results depend on the processing

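The number of genes depends on the limits. It was 138 with at most 10 vehicle UMIs, 358 with at most 40, 481 with at least 100 panobinostat UMIs, 59 with at least 500, and 105 when every cell was thinned before summing, of which 58 are members. It stayed within 1.5 times of 211, at 176 to 268, under the 5 other alternatives, among them panobinostat counts thinned to the vehicle total (176, all members), removal of the 10 cells per gene with most of its UMIs (268, of which 180 are members) and removal of the 1 vehicle cell with most member UMIs (212).

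Depth set the shares. The median share of panobinostat cells was 13.1% unthinned and 3.02% at 9331 UMIs per cell. The median of UMIs per positive cell was 1.06 when thinned and 1.12 without the 10 richest cells per gene. The median of members per cell was 32 unthinned, 8 at 9331 UMIs per cell and 8 over members with at least 500 UMIs, and the median of variance over mean was 1.2 unthinned.

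The median log2 ratio was 5.50 with TMM factors, 5.49 with DESeq2 size factors and 5.41 when cells were thinned before summing. TMM factors shifted every log2 ratio by -0.12 and DESeq2 size factors by -0.13. The lists held 133 genes at limits of 40 and 100 UMIs. Of the 158 promoter windows, 51.3% were CpG-rich, and 27.2% when the observed over expected ratio had to reach 0.75. Within 500 kb of another member lay 56 members, likewise without a count for other genes. Of 30 alternatives, 13 stayed within the counting interval of the median or within 1.5 times of a count, and 17 moved beyond it. That 0 reversed shows nothing. Counts and shares cannot change sign, and the log2 ratio is of genes picked as higher under panobinostat. The transcript start, the removed vehicle cell and the sodium pump list were added after seeing the data. No paired analysis was possible because each treatment has 1 library and no test was run.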
